A study of Mus musculus with 24 samples.

Results

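The genes described here are 8 genes of IL-6 and IL-10 family signalling: the cytokines Il6, Lif, Osm, Il10, Il19 and Il22, the transcription factor Stat3 and the feedback inhibitor Socs3. They were chosen by symbol, as 8 of 55421 genes in the count table, and with the knowledge that Il22 had no counts in LPS-stimulated AhR-deficient cells. RNA sequencing covered bone marrow-derived macrophages (BMDMs) of 4 groups with 6 libraries each. These were wildtype (C57/B6/J) and AhR-deficient (B6.129-Ahr tm1Bra/J) BMDMs, either left unstimulated or stimulated from day 6 with LPS at 97 EU/ml for 24 h. Cells of every group had been cultured in GM-CSF (10 ng/ml) and TGF-β (2 ng/ml), which gives alveolar-like macrophages, and the protocol ends for all of them with 5 µM of a Ca2+ ionophore for 10 min. The AhR-deficient mice lack the aryl hydrocarbon receptor in the whole body, so the bone marrow from which a culture started was already AhR-deficient, and the sequenced RNA is that of a whole culture, not of sorted cells.

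Cytokines of the IL-6 family (IL-6, LIF, oncostatin M) signal through receptors that contain the shared chain gp130, encoded by Il6st. IL-10 and IL-22 use receptors that share the chain encoded by Il10rb. Both kinds of receptor act through JAK kinases on STAT3, which induces Socs3, whose product then blocks gp130 signalling. In macrophages, IL-10 restrains inflammatory cytokine production, while IL-22 is best known as a product of T cells and innate lymphoid cells that acts on epithelia, and AhR is a known regulator of Il22 in those cells.

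The stretches upstream of Il6 and Il22 are shown because these cytokines had the widest genotype differences of the set after LPS, in opposite directions. The sequences are those of RefSeq on GRCm38.p6, 250 bases each, and 6 of the 8 genes (all but Osm and Il10) matched an entry. Capitals mark the letters of 6 motifs searched on both strands. The AhR core was searched as GCGTG and the STAT motif was searched as TTCNNNGAA. The NF-kB motif was searched as GGGANTTTC and the motif of AP-1 was searched as TGANTCA. The C/EBP motif was searched as TTGNGNAAT and the box named for its letters was searched as TATAAAA. No marked stretch overlapped another. The window of Il6 is chr5:30012864-30013113 on the plus strand and that of Il22 is chr10:118204714-118204963 on the plus strand, which reaches into the first bases of Il22 as annotated by Ensembl.
Il6: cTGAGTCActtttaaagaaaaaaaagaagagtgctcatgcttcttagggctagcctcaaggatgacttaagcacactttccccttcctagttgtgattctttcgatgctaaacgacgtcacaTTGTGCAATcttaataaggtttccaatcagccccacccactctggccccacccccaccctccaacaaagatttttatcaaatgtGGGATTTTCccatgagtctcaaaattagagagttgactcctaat
Il22: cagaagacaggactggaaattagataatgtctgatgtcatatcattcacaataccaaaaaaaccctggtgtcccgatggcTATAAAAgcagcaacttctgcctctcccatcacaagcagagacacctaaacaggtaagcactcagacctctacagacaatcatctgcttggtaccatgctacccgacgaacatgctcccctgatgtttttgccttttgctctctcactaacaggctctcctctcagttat
In Il6 the NF-kB letters began 44 bases before the RefSeq start, the C/EBP letters 128 bases and the AP-1 letters 249 bases before it. Among 32851 promoter windows of this length, 0.941% held the NF-kB letters, 2.59% the C/EBP letters and 6.75% the AP-1 letters. In Il22 only the TATA box letters were found, 170 bases before the start, and 4.98% of the windows held them. The AhR core letters, present in 28.2% of the windows, were in neither stretch. Of the other genes, Lif held the AhR core and AP-1 letters, and Il19 and Socs3 held the STAT letters, which 7.02% of the windows had. The Socs3 window lies wholly inside the gene as annotated by Ensembl, and the Lif window reaches into the first bases of Lif. These are matches of letters and say nothing about binding.

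The libraries held between 45106052 and 76992663 counts on genes. Levels are given as CPM, counts scaled to 1000000 per library after TMM factors of 0.704 to 1.30. Libraries of a group are taken as separate animals, as the methods of the study describe them. The labels do not say whether an unstimulated and an LPS-stimulated library came from the same animal, and the comparisons were made without pairing. Library numbers run from 17 to 40 and form 3 runs of 8 with 2 libraries of each group in every run, but the labels do not say whether a run is a batch. Libraries differed in how strongly log2 CPM rose with gene length. The mean slope per doubling of length was 0.357, 0.533 and 0.257 in the runs 17 to 24, 25 to 32 and 33 to 40, and the lowest slopes were 0.0952 (unstimulated AhR-deficient replicate 19) and 0.114 (unstimulated wildtype replicate 33). The wildtype replicates 34 (unstimulated) and 38 (LPS-stimulated) had almost no counts on Y-linked genes. Summed markers of macrophages, mostly Lyz2, lay between 12747 and 35637 CPM in all 24 libraries. Ahr itself had 9.60 to 43.1 CPM in unstimulated wildtype and 4.74 to 11.0 CPM in unstimulated AhR-deficient libraries. After LPS it had 6.57 to 27.9 CPM in wildtype and 21.4 to 63.8 CPM in AhR-deficient libraries (1.36 on the log2 scale, SE 0.35, adjusted p = 0.0110, or 0.0574 with total library size). Counts were made over the whole gene and do not isolate the targeted part, so Ahr does not check the genotype labels. Ahrr, the AhR repressor gene and a direct AhR target, was at 13.3 to 66.1 CPM in unstimulated wildtype and at 0.113 to 1.05 CPM in unstimulated AhR-deficient libraries.

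Between genes, levels were compared per length as FPKM. In unstimulated wildtype BMDMs the order was Socs3 (13.6 ± 1.81 FPKM, SD, n = 6), Osm (13.0 ± 5.49), Stat3 (4.01 ± 2.10), Lif (0.740 ± 0.110), Il6 (0.694 ± 0.277), Il22 (0.104 ± 0.123), Il19 (0.0183 ± 0.0449) and Il10 at 0. Socs3 and Osm lay within the spread of each other, as did Lif and Il6. After LPS, wildtype BMDMs had Il6 at 242 ± 94.2 FPKM and Socs3 at 193 ± 12.9 FPKM, within the spread of each other, followed by Osm at 26.7 ± 4.51 FPKM. Stat3 (12.8 ± 8.01 FPKM) and Il22 (10.0 ± 6.78 FPKM) came next and could not be ordered, ahead of Il10 (2.14 ± 0.728), Lif (0.889 ± 0.293) and Il19 (0.0605 ± 0.0892). LPS-stimulated AhR-deficient BMDMs began with Il6 at 786 ± 185 FPKM and Socs3 at 284 ± 61.3 FPKM and ended with Il22 at 0.

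**Figure D1:**
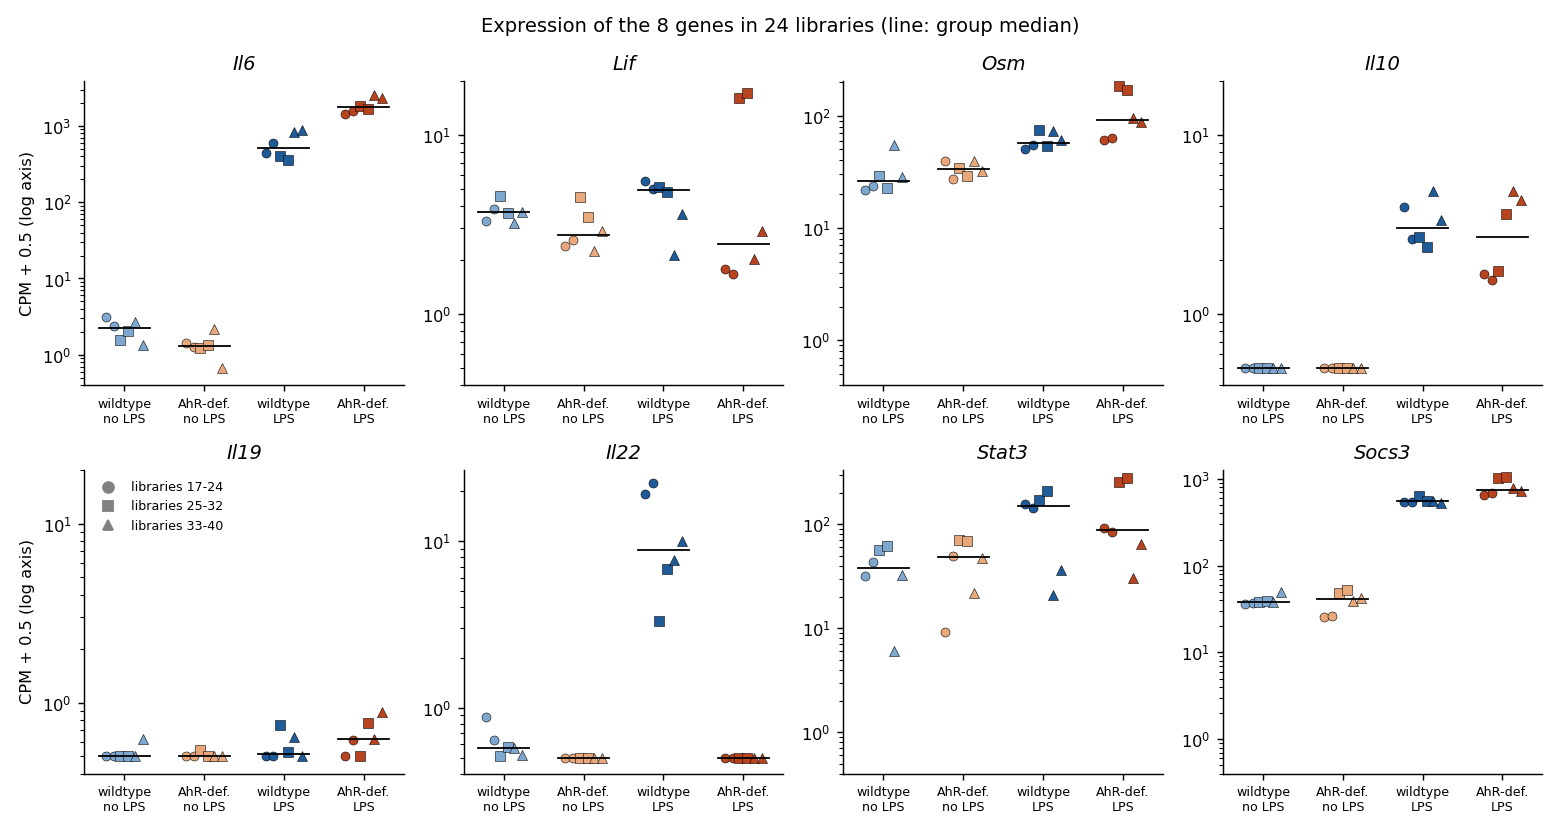
CPM + 0.5 of the 8 genes in each of the 24 libraries (log axis, 1 panel per gene, groups on the horizontal axis, symbols for the 3 runs of library numbers, line at the group median). Il6 and Socs3 rose in every LPS library, Il10 left 0 only in LPS libraries, and Il22 was at 0 in all AhR-deficient libraries.

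The first comparison asked what LPS did to these genes in wildtype BMDMs. Il6, Socs3, Stat3 and Osm rose and Lif did not pass the test. Il22, whose pattern was known when the genes were chosen, is described without a test, as is Il10, which had no unstimulated counts and passed the filter on low counts only through its LPS libraries. Of the 5 remaining genes (Il19 was too low), 4 passed an adjusted p of 0.05 and a log2 fold change of 1, all higher, where 24.9% of 16593 tested genes passed in either direction and 13.2% were higher. For 2 of the 5 (Il6, Socs3) the libraries of both groups did not overlap, which held for 22.4% of all tested genes.

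Il6, the founding cytokine of its family, had 0.852, 1.72 and 2.60 CPM as lowest, median and highest value in unstimulated wildtype libraries and 357, 520 and 889 CPM after LPS. Every LPS library was above every unstimulated one. The log2 fold change was 8.44 (SE 0.47, adjusted p = 2.72e-12), or 348-fold. Socs3 had 35.7, 37.9 and 49.9 CPM without stimulation and 523, 550 and 629 CPM after LPS, also without overlap, with a log2 fold change of 3.82 (SE 0.19, adjusted p = 3.25e-13). Its spread after LPS was the smallest of the set in any group with counts in every library, a coefficient of variation of 6.69%.

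Osm, which encodes oncostatin M, had 21.5, 25.5 and 54.3 CPM without stimulation and 50.1, 57.0 and 73.7 CPM after LPS. Replicate 33, the highest unstimulated library, reached into the LPS values, and 3 of 6 LPS libraries were above all unstimulated ones. The log2 fold change was 1.03 (SE 0.26, adjusted p = 0.00311). It stood at the fold change threshold and fell below it, at 0.96 to 0.99, when 1 of the wildtype replicates 17, 18, 26, 29 or 37 was left out, with adjusted p from 0.00654 to 0.00981. It was also below the threshold with total library size (0.72), with a filter at a mean of 1 CPM (0.97) and with only the 12 wildtype libraries in the fit (just under 1). Lif, the leukemia inhibitory factor gene, had 2.72, 3.19 and 4.06 CPM without stimulation and 1.63, 4.41 and 5.05 CPM after LPS. The groups overlapped, and the log2 fold change of 0.27 (SE 0.54) had an adjusted p of 0.746.

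Il10 had no count in the 6 unstimulated wildtype libraries and 1.87, 2.51 and 4.34 CPM as lowest, median and highest value after LPS, 116 to 191 counts per library. Against a floor of 3 counts over the unstimulated group the level after LPS was at least 382-fold higher. Il22 had 0.0122, 0.0740 and 0.378 CPM without stimulation, 1 to 28 counts per library, and 2.82, 8.40 and 21.8 CPM after LPS. All LPS libraries were above all unstimulated ones, with a log2 fold change of 6.54 (SE 0.84) that is given as a description. Il19 had 8 counts in the unstimulated wildtype group and 23 after LPS, all in 1 and 3 of the 6 libraries, too few for the test.

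Stat3 had 5.61, 37.7 and 60.9 CPM in unstimulated and 20.2, 148 and 209 CPM in LPS-stimulated wildtype libraries. The groups overlapped, with 4 of 6 LPS libraries above all unstimulated ones. The log2 fold change was 1.67 (SE 0.63, adjusted p = 0.0379). The call was lost when 1 of the wildtype replicates 17, 18, 21, 22, 29, 30, 33 or 34 was left out, with adjusted p between 0.0570 and 0.0866. Stat3 has 9527 bases of exons in Ensembl and followed the runs. In LPS libraries of both genotypes it was at 84.7 to 155 CPM in the run 17 to 24, at 170 to 276 CPM in the run 25 to 32 and at 20.2 to 63.9 CPM in the run 33 to 40, whose libraries had the lowest mean slope on gene length. The call in wildtype BMDMs was lost with total library size (adjusted p = 0.113), limma-voom (0.0789), no filter on low counts (0.061) and only the 12 wildtype libraries in the fit (0.0565). It was kept when the run (log2 fold change 1.53, adjusted p = 0.00656) or the length slope (1.28, adjusted p = 1.92e-06) was added to the model. By run, the log2 differences of Stat3 with LPS in wildtype BMDMs were 1.99, 1.68 and 0.96.

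The second comparison asked the same of AhR-deficient BMDMs. Il6, Socs3, Osm and Il10 were higher after LPS in every library. Stat3 and Lif passed the thresholds too, but both calls were lost when single libraries were left out, and the median of Lif was lower after LPS. All 5 genes tested passed, where 30.8% of the tested genes passed in either direction and 15.1% were higher. For 3 of the 5 (Il6, Osm, Socs3) the groups did not overlap, which held for 28.5% of all tested genes. Il10, again without unstimulated counts, is left out of these numbers. Il22 stayed at 0 counts in all 12 AhR-deficient libraries.

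Il6 had 0.167, 0.792 and 1.64 CPM without stimulation and 1431, 1767 and 2573 CPM after LPS in AhR-deficient libraries. The log2 fold change was 11.16 (SE 0.53, adjusted p = 6.15e-14). Socs3 had 24.9, 40.5 and 51.4 CPM without and 652, 751 and 1058 CPM with LPS, a log2 fold change of 4.41 (SE 0.20, adjusted p = 2.07e-14). Both genes were higher in 6 of 6 LPS libraries than in any unstimulated library. The wildtype and AhR-deficient responses of the 8 genes are given side by side and their difference was not tested, because the genotype difference after LPS had a part in the choice of the genes.

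Osm had 26.5, 32.8 and 39.01 CPM without stimulation and 59.7, 91.5 and 182 CPM after LPS, with no overlap and a log2 fold change of 1.72 (SE 0.27, adjusted p = 1.18e-05). Il10 again had no count without stimulation and 1.05, 2.18 and 4.36 CPM after LPS, at least 321-fold higher. Stat3 had 8.63, 48.1 and 70.4 CPM without and 30.1, 87.7 and 276 CPM with LPS. Its groups overlapped, the log2 fold change was 1.59 (SE 0.63, adjusted p = 0.0419), and leaving out 1 of the AhR-deficient replicates 19, 20, 31, 32, 35 or 36 ended the call with adjusted p of 0.0605 to 0.122, as did the 4 alternatives that ended it in wildtype BMDMs (0.0507 to 0.183). The fold change stayed between 1.25 and 1.80 over the removals. The call was kept when the run (1.27, adjusted p = 0.0185) or the length slope (1.48, adjusted p = 1.59e-07) was added to the model. By run, the log2 differences of Stat3 with LPS in AhR-deficient BMDMs were 2.04, 1.92 and 0.46.

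Lif had 1.75, 2.25 and 3.98 CPM without stimulation and 1.17, 1.96 and 16.6 CPM after LPS in AhR-deficient libraries. Its median was lower after LPS, and its mean was higher through replicates 31 and 32, which alone lay above all unstimulated libraries. The log2 fold change was 1.35 (SE 0.55, adjusted p = 0.0491). Without replicate 31 it was 0.87 (adjusted p = 0.201) and without replicate 32 it was 0.80 (adjusted p = 0.231), and the call was lost under 18 of 24 removals of a single library and under 9 of 12 other alternatives. With the run as a factor the adjusted p was 0.117. Within the runs, the log2 differences of Lif after LPS were −0.53, 2.07 and −0.08. Il19 had 4 counts without and 46 counts with LPS, in 1 and 4 of 6 libraries.

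The third comparison asked whether the genotypes differed without stimulation. Il6, Lif, Osm, Stat3 and Socs3 did not pass the thresholds, which 4.48% of all tested genes did, and their libraries overlapped between the genotypes, while those of 5.15% of all tested genes did not. Il22 is described without a test, since it was chosen for its absence from AhR-deficient cells after LPS and passed the filter on low counts only through its wildtype LPS libraries. It had 49 counts over the 6 unstimulated wildtype libraries and none in the AhR-deficient ones, at least 15.1-fold lower. Every wildtype library had a count, and 28 of the 49 counts came from replicate 17. Without that replicate it was at least 8.28-fold lower.

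Il6 without stimulation was at the values given above, with 4 of 6 AhR-deficient libraries below all wildtype ones. The log2 fold change was −1.01 (SE 0.36, 2.02-fold lower) and did not pass in edgeR, with an adjusted p of 0.123 (unadjusted p = 0.0105, the only one of these 5 genes under 0.05). With total library size it passed, at −1.10 (adjusted p = 0.042), and none of the 5 passed with DESeq2's test or limma-voom. With the length slope in the model Il6 was at −0.992 (adjusted p = 0.0181), and with run and slope together at −0.977 (adjusted p = 0.0236). Both were just short of the fold change threshold. Without the AhR-deficient replicate 35 Il6 was at −1.32 (adjusted p = 0.0289). Lif (−0.35, SE 0.54), Osm (0.16, SE 0.26), Stat3 (0.21, SE 0.61) and Socs3 (−0.03, SE 0.17) had adjusted p of 1.0 each. Il10 had no counts in either genotype, and for Il19 the exact two-sided permutation test of mean log2(CPM + 0.5) gave p = 1.0 over 924 arrangements, with 0.00216 as the smallest p possible.

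The fourth comparison set the genotypes side by side after LPS. It was used in choosing the genes, so all values of the 8 genes are descriptions. Il6 was higher and Il22 absent in AhR-deficient BMDMs, Socs3 was moderately higher, and the groups overlapped for Osm, Lif, Il10, Il19 and Stat3. The libraries of Il6, Il22 and Socs3 did not overlap, which held for 7.11% of the tested genes, while 8.36% of the tested genes passed the thresholds. Nothing is read from these shares, since the choice of the genes used this comparison.

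The lowest AhR-deficient library had 1431 CPM of Il6 and the highest wildtype library 889 CPM. The log2 difference was 1.70 (SE 0.35), or 3.25-fold, and within the 3 runs it was 1.55, 2.22 and 1.51. Socs3 differed by 0.56 (SE 0.17), or 1.47-fold, from a highest wildtype value of 629 CPM to a lowest AhR-deficient value of 652 CPM. Its within-run differences were 0.31, 0.82 and 0.48. Osm differed by 0.85 (SE 0.26), with 4 of 6 AhR-deficient libraries above all wildtype ones, and by 0.23, 1.48 and 0.47 within runs.

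For the remaining genes the sign differed between runs. Lif differed by 0.73 (SE 0.54) over all libraries and by −1.61, 1.74 and −0.20 within runs. Stat3 differed by 0.13 (SE 0.61), and by −0.75, 0.49 and 0.69 within runs. Under the other scalings, tests and covariates Lif was between −0.11 and 0.77 and Stat3 between −0.14 and 0.38. Il10 differed by −0.19 (SE 0.41) and by −0.999, −0.0046 and 0.19 within runs. For Stat3, Lif and Osm the highest AhR-deficient values after LPS were those of replicates 31 and 32 in the run 25 to 32, and both had more Socs3 than any other library.

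**Figure D2:**
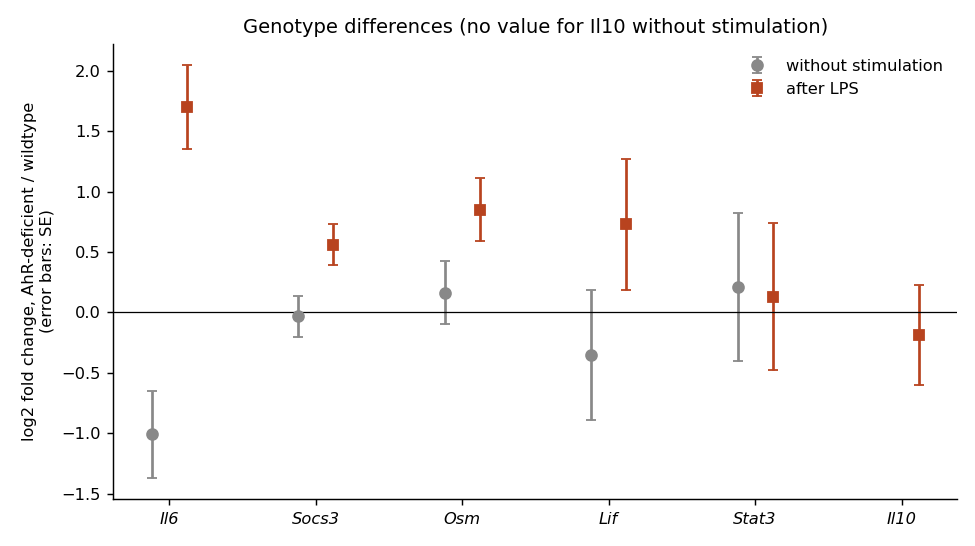
Log2 fold change of AhR-deficient over wildtype BMDMs for 6 of the genes, without stimulation and after LPS (points with SE, from the model of all 24 libraries). Il6 lies at −1.01 without stimulation and 1.70 after LPS, while the error bars of Stat3 cross 0 in both states. Il22 has no finite value and Il19 was not fitted.

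**Figure D3:**
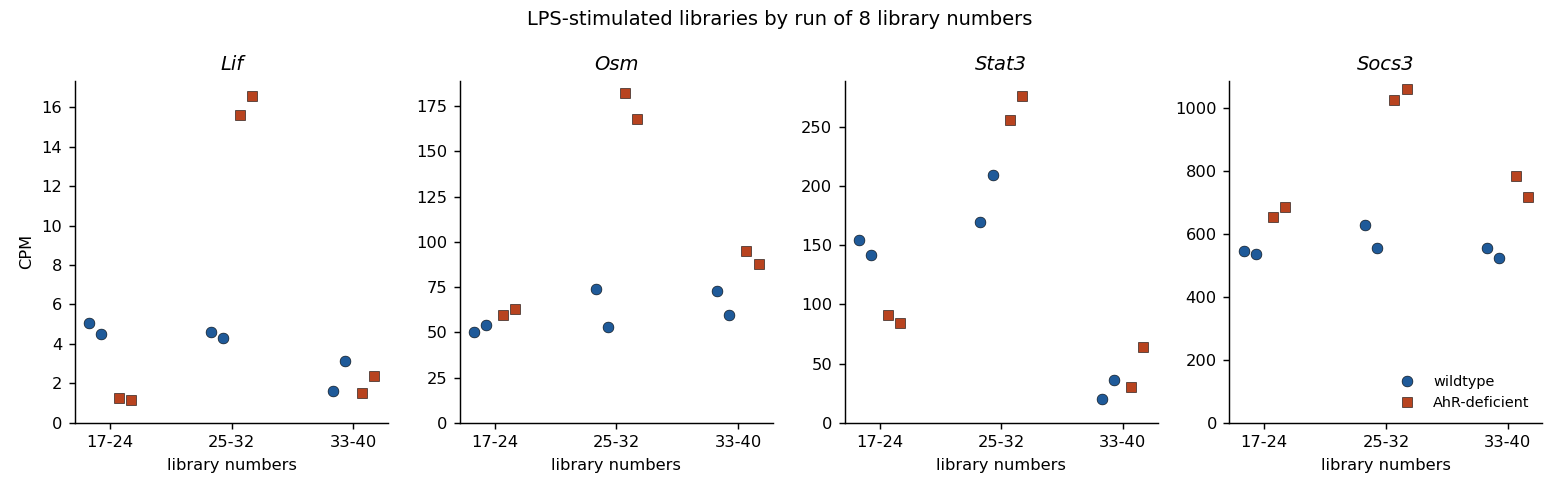
CPM of Lif, Osm, Stat3 and Socs3 in LPS-stimulated libraries by run of library numbers (circles wildtype, squares AhR-deficient, 2 libraries each). Only in the run 25 to 32 do all 4 genes lie higher in both AhR-deficient libraries than in both wildtype libraries, and Stat3 is lowest in the run 33 to 40.

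Il22 had 173 to 1269 counts per library in LPS-stimulated wildtype BMDMs and 0 in all 6 LPS-stimulated AhR-deficient libraries, at least 1098-fold lower against a floor of 3 counts over the group. Such floors cover counting error only. The wildtype values themselves varied with the run. They were 18.9 and 21.8 CPM in the run 17 to 24, 2.82 and 6.35 CPM in the run 25 to 32 and 7.22 and 9.57 CPM in the run 33 to 40, so the runs did not overlap. Iltifb, a near-identical copy of Il22 at 79.6 kb on the same chromosome 10, shares 20.4% of the 100-base windows of its transcript with Il22 and is 97.4% identical along it. It had 47 counts, all in the 6 LPS-stimulated wildtype libraries. Since the deposited counts are of uniquely aligned reads, the share of reads between Il22 and Iltifb is uncertain, but neither gene had a count in AhR-deficient libraries.

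In bulk RNA, fewer cells of a type and less RNA per cell cannot be told apart, so markers of other cells were read beside Il22. Of 16 T cell and innate lymphoid markers, 11 were under 1 CPM in every library, and of these Il17a and Il17f had no count at all. After LPS, 6 of the 11 had a higher mean in wildtype and 3 in AhR-deficient libraries. Cd8a had a mean of 0.244 CPM in LPS-stimulated wildtype, with counts in 5 of 6 libraries, and was at 0 in all LPS-stimulated AhR-deficient libraries. Cd3d (0.0493 CPM), Cd3g (0.0458 CPM) and Cd3e (0.00800 CPM) were likewise counted after LPS in some wildtype libraries only, while Trac had means of 0.0319 and 0.0332 CPM in wildtype and AhR-deficient libraries. Without stimulation Cd3g had 0.156 CPM in wildtype, in 5 of 6 libraries, and no count in AhR-deficient libraries. The summed list lay between 53.1 and 132 CPM in LPS-stimulated wildtype and between 81.0 and 274 CPM in LPS-stimulated AhR-deficient libraries, mostly Il7r. Thy1 moved with Il22, at 2.30 to 15.98 CPM in wildtype and 0 to 0.465 CPM in AhR-deficient libraries. Several dendritic cell markers were lower in AhR-deficient libraries too, but not all of them rose with LPS in wildtype as Il22 did. Of 8 tested dendritic cell markers, 5 were lower and 1 higher in unstimulated AhR-deficient BMDMs and 6 were lower after LPS. For this and the other marker lists, the share of all tested genes that passed in either direction was 4.48% without stimulation and 8.36% after LPS. Flt3 had a mean of 18.6 CPM in wildtype and 0.0397 CPM in AhR-deficient libraries after LPS, and Cd207 had 2.93 CPM and 0 CPM. In unstimulated wildtype the means were 1.55 CPM for Flt3 and 35.4 CPM for Cd207, so Flt3 rose with LPS and Cd207 fell. The summed dendritic cell list was 2037 to 6419 CPM in wildtype and 540 to 5765 CPM in AhR-deficient libraries after LPS. Markers of mast cells and basophils (4 of 6 lower without stimulation, 5 after LPS) and neutrophils (5 of 5 and 3 of 5 tested lower) were lower too. Of the tested T cell and innate lymphoid markers 1 was lower without stimulation, and 1 was lower and 1 higher after LPS. Of 10 macrophage markers 1 was higher in AhR-deficient BMDMs without stimulation and 1 after LPS. NK cell and B cell markers were under 1 CPM each in every library, although 1 NK cell marker passed as higher after LPS, and of 6 fibroblast markers 1 was higher after LPS. The part of these cells in the Il22 and other genotype results was not tested.

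**Figure D4:**
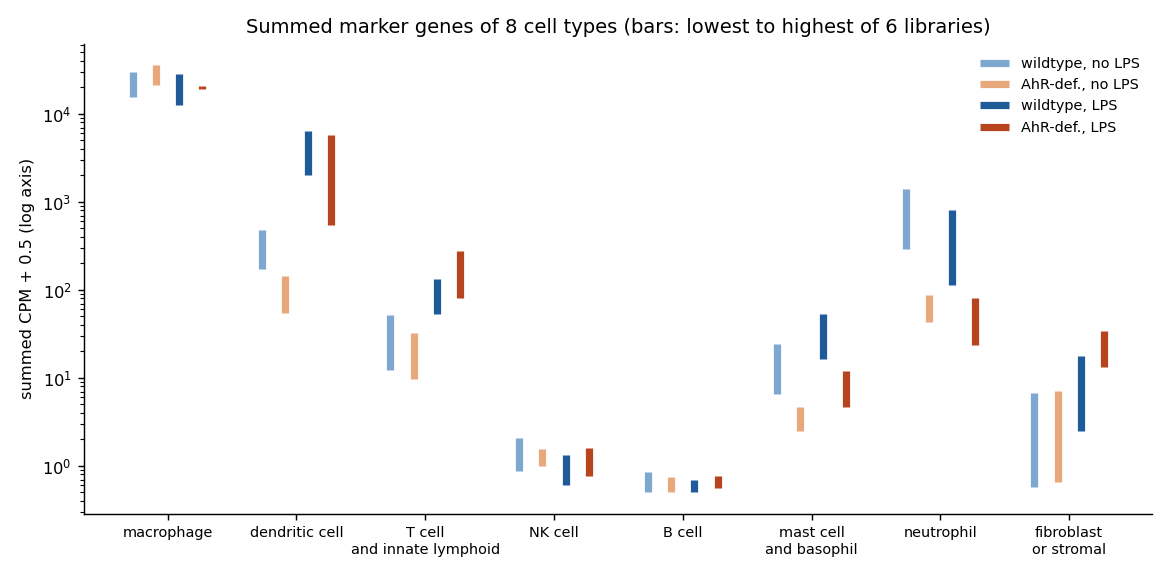
Summed CPM + 0.5 of marker genes of 8 cell types (log axis), as bars from the lowest to the highest of 6 libraries in each group. Macrophage markers are above 12747 CPM throughout, NK and B cell markers are near 0, and neutrophil markers do not overlap between genotypes in either state.

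The rest of the pathway was read from lists with 91 further genes, of which 72 were tested. After LPS, 37 of them (51.4%, and 24.9% of all tested genes) passed in wildtype BMDMs, 33 higher and 4 lower, and 39 (54.2%, and 30.8% of all tested genes) in AhR-deficient BMDMs, 33 higher and 6 lower. Between genotypes, 13 (18.1%, and 4.48% of all tested genes) passed without stimulation, 3 higher and 10 lower in AhR-deficient BMDMs, and 17 (23.6%, and 8.36% of all tested genes) after LPS, 6 higher and 11 lower. The LPS response differed between genotypes for 7 genes (9.72%) where 4.3% of all tested genes passed the interaction test. Both shares depended on the model, with 11 genes (7.24% of all tested genes) when the run was added, 12 (6.78%) in DESeq2's test, 24 (16.8%) when the length slope was added and 28 (19.7%) with both. The lists were written with earlier results known, so these shares are read only beside the percentages over all genes.

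Among IL-6 family ligands, Clcf1 and Il27 were the 2 tested besides the 8 genes. Clcf1, which encodes cardiotrophin-like cytokine factor 1, had 2.95 to 4.70 CPM in LPS-stimulated wildtype and 8.81 to 13.7 CPM in LPS-stimulated AhR-deficient libraries, without overlap. Its log2 fold change between genotypes was 1.44 (SE 0.23, adjusted p = 9.28e-05), and its LPS response was larger in AhR-deficient BMDMs by 2.14 (SE 0.32, adjusted p = 0.000304). Il27, the p28 subunit of IL-27, had means of 9.26 and 25.3 CPM after LPS (log2 fold change 1.45, SE 0.36, adjusted p = 0.00826), with overlapping libraries. Il31, Il20, Il24, Ifnl2 and Ifnl3 had no counts.

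Of 6 tested IL-6 family receptor chains, Il27ra was higher in AhR-deficient BMDMs without stimulation (1.69, SE 0.24, adjusted p = 5.11e-05) and after LPS (1.17, SE 0.24, adjusted p = 0.00156), where it was 0.94 and under the fold change threshold with total library size. Il11ra1 was higher without stimulation (1.20, SE 0.35, adjusted p = 0.0372), a call that was lost when 1 of the wildtype replicates 18, 25, 26 and 34 or the AhR-deficient replicates 19, 35 and 36 was left out (adjusted p 0.0504 to 0.113). Osmr, the oncostatin M receptor chain, rose with LPS in both genotypes but stayed at a mean of at most 1.26 CPM. The shared chain Il6st had means of 40.4 CPM in wildtype and 21.4 CPM in AhR-deficient libraries after LPS, and neither Il6st nor the IL-6 receptor gene Il6ra passed in any comparison.

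On the IL-10 side, the shared chain Il10rb rose with LPS by 1.23 (SE 0.18, adjusted p = 6.26e-06) in wildtype and by 1.499 (SE 0.18, adjusted p = 2.86e-07) in AhR-deficient BMDMs, and Il20rb by 2.92 (SE 0.24, adjusted p = 9.81e-10) and 2.88 (SE 0.24, adjusted p = 6.15e-10). The IL-10 receptor gene Il10ra passed in AhR-deficient BMDMs at 1.26 (SE 0.17, adjusted p = 1.96e-06). In wildtype its log2 fold change was 0.80 (adjusted p = 0.000602), under the fold change threshold. Neither the Il10 receptor chains nor Il20rb passed a genotype comparison. The IL-22 receptor chain Il22ra1 had 25 counts in all libraries together and was not tested. Ifnlr1, the interferon lambda receptor chain, was lower in AhR-deficient BMDMs after LPS by a log2 fold change of −2.32 (SE 0.51, adjusted p = 0.00259).

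Among JAK and STAT genes besides Stat3, the genes Jak2, Stat2 and Stat4 rose with LPS in both genotypes. Of these 3, Stat4 alone passed a genotype comparison. It was lower in AhR-deficient BMDMs without stimulation (−5.26, SE 1.10, adjusted p = 0.00297) and after LPS (−3.37, SE 0.86, adjusted p = 0.00912), where means were 26.8 CPM in wildtype and 2.59 CPM in AhR-deficient libraries. Among inhibitors, Socs1 was lower in unstimulated AhR-deficient BMDMs, at 5.19 to 13.0 CPM against 18.5 to 29.9 CPM in wildtype (−1.63, SE 0.19, adjusted p = 3.19e-06). After LPS its means were 120 CPM in wildtype and 119 CPM in AhR-deficient libraries, and the LPS response differed by 1.63 (SE 0.26, adjusted p = 0.000593). Socs2 was lower after LPS (−1.70, SE 0.25, adjusted p = 4.56e-05), with a response smaller by a log2 difference of −1.46 (SE 0.35, adjusted p = 0.0162).

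The 22 listed STAT3 target genes are also targets of other factors. LPS raised 15 and lowered 3 of them in each genotype, where 24.9% of all tested genes passed in wildtype and 30.8% in AhR-deficient BMDMs, with median log2 fold changes of 1.79 in wildtype and 1.76 in AhR-deficient BMDMs, beside medians over all tested genes of 0.03 and −0.03. Between genotypes 6 passed without stimulation, 1 higher and 5 lower, and 7 after LPS, 1 higher and 6 lower, beside 4.48% and 8.36% of all tested genes. The list's median difference was −0.33 without stimulation and −0.23 after LPS, where that of all tested genes was −0.01 and −0.05. Timp1, a metalloproteinase inhibitor, was the higher gene in both states. It had 22.9 to 33.4 CPM against 2.53 to 5.41 CPM in wildtype without stimulation (3.02, SE 0.27, adjusted p = 9.15e-08) and 247 to 698 CPM against 30.7 to 64.0 CPM after LPS (3.48, SE 0.27, adjusted p = 6.89e-09).

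The 5 listed STAT3 target genes that were lower in AhR-deficient BMDMs without stimulation were Fgl2, Lrg1, Hp, Lcn2 and Saa3, and these and Il21r were the 6 lower after LPS. Hp, which encodes haptoglobin, had 348 to 595 CPM in wildtype and 56.2 to 78.2 CPM in AhR-deficient libraries after LPS (−2.66, SE 0.23, adjusted p = 4.94e-08). The call for Lcn2 after LPS (−1.65, SE 0.54, adjusted p = 0.0482) was lost under 17 of 24 removals of a library, with −1.12 (adjusted p = 0.196) without the wildtype replicate 29. Lcn2 and Lrg1 are also made by neutrophils, whose markers were lower too. The part of these cells in the values of the listed genes, Hp included, was not tested. Among AhR target genes and regulators of Il22 and Il10, Cyp1b1 was lower in AhR-deficient BMDMs in both states (−3.32, SE 0.74, adjusted p = 0.00528 and −2.61, SE 0.71, adjusted p = 0.0140). Irf4 was higher after LPS (1.04, SE 0.30, adjusted p = 0.0246), a call lost without AhR-deficient replicate 31 or 32 or wildtype replicate 37 or 38 (adjusted p 0.0532 to 0.0791). Maf, a regulator of Il10, rose with LPS in both genotypes, by 3.35 (SE 0.49, adjusted p = 6.84e-06) and 4.80 (SE 0.53, adjusted p = 6.61e-08).

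**Figure D5:**
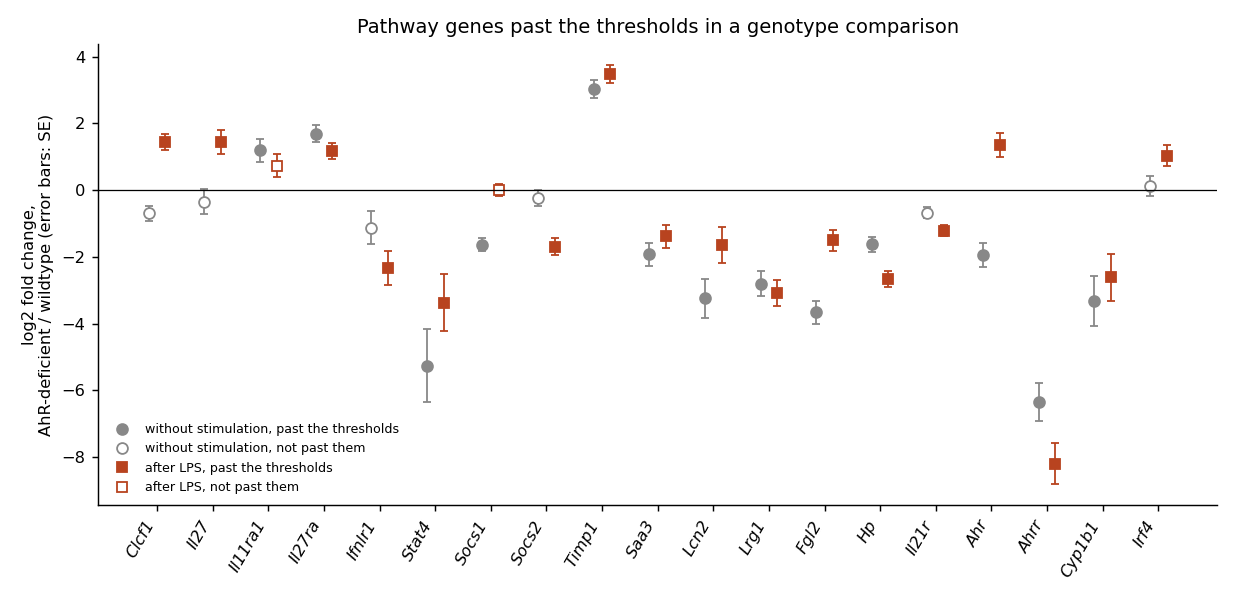
Log2 fold change of AhR-deficient over wildtype BMDMs with SE for the pathway genes past the thresholds in a genotype comparison (circles without stimulation, squares after LPS, filled where the thresholds were passed). Timp1 is the highest at 3.02 and 3.48, and Ahrr the lowest at −6.34 and −8.19.

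The genes whose pattern was most like that of each of the 7 fitted genes (all but Il19) were read from Pearson's r of log2(CPM + 0.5) over the 24 libraries, given as a description since the libraries share groups and runs. Il6 was closest to Ccrl2 (r = 0.994), Mir155hg (0.992) and Il1a (0.992). Socs3 was closest to Ptgs2 (0.993), Birc3 (0.991) and Aoah (0.991), although Ptgs2 had means of 560 CPM in wildtype and 3153 CPM in AhR-deficient libraries after LPS. Il22 was closest to Coch (0.975), Hmgn3 (0.974) and Rab26 (0.971), which had means of 14.5, 20.4 and 3.56 CPM in LPS-stimulated wildtype and 0.283, 0.733 and 0.118 CPM in LPS-stimulated AhR-deficient libraries. Il10 was closest to Il1f6 (0.981), Azi2 (0.973) and Gm13872 (0.969), and Osm to Gtf2e2 (0.958), Plod2 (0.956) and 1700003N22Rik (0.944). Lif had the lowest likeness to any gene, with Mxi1 (0.885), C030037D09Rik (0.876) and Atp11b (0.848) nearest, and Stat3 was nearest to Nsd3 (0.986), Dyrk2 (0.984) and Tmem127 (0.981).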

How the data were processed

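The authors aligned read pairs of 24 libraries to mm10 with GSNAP, counted uniquely aligned fragments on Ensembl 98 genes with featureCounts 2.0.1 (reverse-stranded) and deposited the counts without normalization. Symbols came from GENCODE M21. The 92 spike-ins, with 1 count in all, were left out. One model of all libraries was fitted in edgeR 4.0.16 (R 4.3.3, limma 3.58.1) with TMM factors, filterByExpr (16593 genes, 7 of the 8) and robust quasi-likelihood tests, and p was adjusted by Benjamini-Hochberg over all tested genes. The thresholds were an adjusted p of 0.05 and a log2 fold change of 1 in either direction, without the latter for the interaction. The biological coefficient of variation was 49.1%. The tests were checked on simulated counts. Python 3.11.15, scipy 1.17.1 and matplotlib 3.10.9 were used for exact tests and plots.

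The 8 genes, the lists (from general knowledge) and the markers were chosen with earlier results of these data known. Named were the 8 genes, list genes past the thresholds in a genotype comparison or the interaction (up to 4 per list by p), up to 2 per list and direction for LPS, receptor chains, near-identical copies, and the 3 most alike genes. Further genes (Ahr, genes without counts, marker genes, Il6st, Il6ra, Maf, Lcn2 and Saa3) were named after their values were seen. Alternatives included DESeq2 1.42.0, limma-voom, other scalings and filters, and each library left out. Chosen after seeing the data were the run and length slope together, and a fit without replicates 34 and 38.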

Additional observations from a re-analysis of the deposited data

Results flagged for a closer look

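In 26 groups of 6 libraries with counts of the 8 genes in more than 1 library, 4 had a library far from the others by Dixon's criterion, where chance gives about 1 in 20 groups. They were Osm in unstimulated wildtype replicate 33 (54.3 CPM, next 28.4 CPM), Socs3 in unstimulated wildtype replicate 34 (49.9 CPM, next 38.9 CPM) and in LPS-stimulated wildtype replicate 29 (629 CPM, next 555 CPM), and Il22 in unstimulated wildtype replicate 17 (0.378 CPM, next 0.142 CPM). Il19 met the criterion by construction in 2 more groups, where a single library had a count, unstimulated wildtype replicate 34 (0.126 CPM) and unstimulated AhR-deficient replicate 27 (0.0443 CPM).

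The response to LPS differed between genotypes in the interaction test for 7 pathway genes outside the set. The log2 response of AhR-deficient minus that of wildtype BMDMs was 2.14 for Clcf1 (adjusted p = 0.000304), 1.63 for Socs1 (0.000593), −1.46 for Socs2 (0.0162), 1.35 for Il1rn (0.00827), 2.16 for Fgl2 (0.00428), 3.29 for Ahr (0.000375) and 1.48 for Tiparp (0.000783). For the 8 genes this difference was not tested, because their values after LPS had a part in their choice.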

How the results depend on the processing

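Of the tested values for single genes under alternatives other than leaving out 1 library, 618 kept their direction and side of the threshold, 31 lost and 1 gained a call, and 2 changed sign, Lif in wildtype BMDMs with total library size (−0.060) and Socs3 without stimulation when both libraries without Y-linked counts were left out (0.045). Neither was a call. Of 72 values between genotypes after LPS for the 6 genes other than Il19 and Il22, given as a description, 3 changed sign, Lif with limma-voom (−0.11) and Stat3 with total library size (−0.14) and without the libraries lacking Y-linked counts (−0.061). Stat3 also did so without AhR-deficient replicate 31 or 32 or wildtype replicate 37 or 38 (−0.23 to −0.072). Without single libraries the genotype difference without stimulation was −0.013 to 0.43 for Stat3, with the sign changed without wildtype replicate 33, and −0.13 to 0.069 for Socs3, with the sign changed without AhR-deficient replicate 19 or 20 or wildtype replicate 34. Neither was a call.

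The number of the 8 genes past the thresholds without stimulation (1) was 2 with total library size, where Il6 passed, 0 with limma-voom and 0 with only the 12 libraries compared, whose filter removed Il22, and 1 to 2 without single libraries. For LPS in wildtype BMDMs (5) it was 3 with total library size and with only the 12 libraries compared, and 3 to 5 without single libraries. For LPS in AhR-deficient BMDMs (6) it was 4 to 6 without single libraries. The 1 call without stimulation is Il22, and the numbers for LPS include Il10. The text describes both without a test, so these numbers lend them no weight. Over all tested genes 4.48% passed without stimulation, 24.9% for LPS in wildtype and 30.8% for LPS in AhR-deficient BMDMs. For genotype after LPS (2, and 2 without single libraries) it was 4 with no minimum fold change, which says nothing of stability because the choice of the genes used this comparison. Pathway genes past the thresholds without single libraries were 12 to 14 and 16 to 17 between genotypes without and with LPS, 34 to 38 and 37 to 40 for LPS, and 7 to 9 for the interaction, which gave 12 with DESeq2's test, 11 with the run as a factor, 24 with the length slope and 28 with both. The cause of these changes was not tested. Lif lost its call in AhR-deficient BMDMs under 9 of 12 alternatives and Stat3 in each genotype under 4 (total library size, limma-voom, no filter, only the 12 libraries compared). For Il19, pseudocounts of 0.1 and 2 gave the same p of 1.0.

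Total library size shifted the median log2 fold change of all tested genes to −0.31 for LPS in wildtype, −0.52 for LPS in AhR-deficient BMDMs and −0.26 for genotype after LPS. No paired analysis was made, because the labels tie no unstimulated library to an LPS-stimulated one. Replicates 34 and 38, the only libraries almost without Y-linked counts, are an unstimulated and an LPS-stimulated wildtype library of the same run. Whether libraries share animals is unresolved, and the LPS tests took them as separate. Depth limits Il19 and unstimulated Il10 and Il22, where 0 counts in a group allow up to 3.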
